A study of Mus musculus with 10 samples.

Results

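Zinc enters the cytosol through the ZIP transporters of the Slc39 family, leaves it through the ZnT transporters of the Slc30 family, and is buffered inside the cell by metallothioneins, small proteins rich in cysteine. The prostate is known for tissue and secretions rich in zinc, and ZIP1 is the importer most often named in that context. The metal-responsive factor MTF1 binds metal response elements in DNA and raises transcription of metallothionein genes and of Slc30a1 when zinc is high. The genes described here are 10 of the 26374 genes that could be named in the deposited tables: the ZIP genes Slc39a1, Slc39a6, Slc39a7, Slc39a8 and Slc39a14, the ZnT genes Slc30a1, Slc30a4 and Slc30a9, and the metallothionein genes Mt1 and Mt2. They were listed by name, and all 10 passed the filter on low values, as did 12518 genes in all.

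The 10 RNA sequencing libraries came from prostate cells of C57BL/6 mice aged 8 to 12 weeks, separated by flow cytometry. All gates were negative for the lineage markers (Lin-). Basal cells were CD24low/CD49fhigh (2 libraries), and stromal cells were CD24-/CD49f- (2 libraries). Luminal cells were CD24high/CD49flow and were divided by the surface protein Sca-1 into Sca-1- (3 libraries) and Sca-1+ (3 libraries). No genotype, treatment or time point separates the groups, so every comparison is between cell types. Whether each library is a separate animal is not given by the labels, so p-values measure the spread between these libraries, which may be technical. A culture protocol accompanies every library, and it is not stated whether sorted cells were cultured before RNA was taken. Levels are FPKM, which scales fragments to transcript length and to the number mapped, and differences are on the log2(FPKM + 1) scale.

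Marker genes were checked against the gates. The 10 basal genes summed to 7909 and 9320 FPKM in the basal libraries and to between 47 and 3360 FPKM elsewhere. The 3360 FPKM was in Sca-1+ luminal replicate 3, where Krt15 was at 3225 FPKM, Krt5 at 7.46 and Krt14 at 9.40. The 10 luminal secretory genes reached 138636 to 177122 FPKM in Sca-1- luminal cells and 3163 to 25479 FPKM elsewhere. Most of each Sca-1- luminal sum was Spink1 (84219 to 128871 FPKM). Basal Krt8 (607 and 1234 FPKM) and Krt18 (1554 and 2004 FPKM) lay inside the Sca-1- luminal ranges of these genes. Against Sca-1- luminal, limma called 5, 6 and 9 of the 10 lower in basal, Sca-1+ luminal and stromal libraries. Over all tested genes, 25.9%, 13.2% and 27.3% were called lower. The Sca-1+ luminal libraries did not stand together: the 10 fibroblast genes summed to 5634, 2970 and 414 FPKM in replicates 1, 2 and 3. The same sum was 7868 and 6289 FPKM for stromal cells, 710 and 528 FPKM for basal cells and 85.6 to 154 FPKM for Sca-1- luminal cells. None of the 10 fibroblast genes was at 0 in any library, and limma called all 10 higher in the Sca-1+ group when set against Sca-1- luminal. The pan-leukocyte gene Ptprc stayed at or below 0.338 FPKM everywhere, and the T cell gene Cd3e at or below 0.243 FPKM. The 8 leukocyte genes summed to 113 to 496 FPKM over the 6 luminal libraries, most of it from Cd52 (96.4 to 492 FPKM). Over the 4 others they summed to 11.5 to 29.9 FPKM, with Cd52 at 4.15 to 8.77 FPKM. There Cd68 was at 11.4 and 17.4 FPKM in basal and at 3.54 and 11.6 FPKM in stromal libraries. The 3 erythroid genes summed to 80.0 to 769 FPKM in luminal libraries, highest in Sca-1- replicate 3, and to 4.26 to 39.96 FPKM in the others. The part of these transcripts in the results was not tested. In bulk samples, fewer cells of a type and less RNA per cell cannot be told apart. Named differences between the 2 luminal groups are therefore given also without replicate 3, and with replicate 3 as the only Sca-1+ library. The libraries held 20.2 to 27.0 M mapped fragments, estimated from the steps between low values, and the least covered member value, Slc39a1 in Sca-1- luminal replicate 3, rested on about 118 fragments.

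The coding sequences of Mt1 and Mt2 (GENCODE M21, mm10, both on the plus strand of chromosome 8) show the feature that defines the family and how far the pair can be told apart by sequence. Capitals mark the cysteine codons, TGC or TGT, which are the metal-binding residues.
Mt1: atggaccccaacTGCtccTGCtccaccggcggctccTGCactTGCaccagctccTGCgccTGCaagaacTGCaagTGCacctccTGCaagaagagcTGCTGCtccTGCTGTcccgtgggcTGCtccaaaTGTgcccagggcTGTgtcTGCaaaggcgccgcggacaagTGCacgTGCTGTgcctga
Mt2: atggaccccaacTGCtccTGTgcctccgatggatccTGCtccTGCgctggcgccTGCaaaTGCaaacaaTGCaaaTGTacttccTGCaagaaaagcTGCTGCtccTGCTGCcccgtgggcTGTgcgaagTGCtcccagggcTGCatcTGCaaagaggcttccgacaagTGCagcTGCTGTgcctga
Each reading frame is 186 nt long and encodes 61 amino acids, of which 20 are cysteine, and all 20 cysteine codons stand at the same positions in both. The frames are identical at 148 of 186 positions (79.6%), and their longest shared run is 20 nt.

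The promoters of Mt1, Mt2 and Slc30a1 are shown because these 3 genes are textbook targets of MTF1, while over the 10 libraries Mt1 followed Mt2 (Pearson correlation 0.91) and not Slc30a1 (-0.30). Each stretch holds the 250 bases before the annotated start (RefSeq, GRCm38.p6, plus strand in all 3), at chr8:94178839-94179088, chr8:94172368-94172617 and chr1:191906531-191906780. Capitals mark the metal response element core, searched as TGCACNC and TGCGCNC on both strands. A match on the minus strand appears as its reverse complement.
Mt1 promoter: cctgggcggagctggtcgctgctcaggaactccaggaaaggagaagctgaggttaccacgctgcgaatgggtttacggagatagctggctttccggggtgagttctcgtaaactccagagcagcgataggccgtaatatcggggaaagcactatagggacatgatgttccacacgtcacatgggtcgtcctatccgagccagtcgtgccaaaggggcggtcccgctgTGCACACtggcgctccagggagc
Mt2 promoter: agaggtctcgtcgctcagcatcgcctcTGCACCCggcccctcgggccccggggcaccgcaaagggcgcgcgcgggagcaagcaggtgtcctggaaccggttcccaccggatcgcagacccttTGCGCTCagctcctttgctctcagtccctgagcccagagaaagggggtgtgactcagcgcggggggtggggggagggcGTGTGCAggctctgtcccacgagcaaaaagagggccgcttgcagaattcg
Slc30a1 promoter: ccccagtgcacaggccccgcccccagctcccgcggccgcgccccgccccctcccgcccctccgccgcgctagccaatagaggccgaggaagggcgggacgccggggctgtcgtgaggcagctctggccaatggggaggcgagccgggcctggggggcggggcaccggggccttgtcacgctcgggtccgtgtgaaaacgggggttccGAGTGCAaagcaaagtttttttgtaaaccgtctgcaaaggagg
Over windows of 300 bases, 250 before the start and 50 after it, the core occurred 4 times at Mt2, 3 times at Mt1, 3 times at Slc30a4 and 2 times at Slc30a1. Of these, 3 of 4 at Mt2, 1 of 3 at Mt1 and 1 of 2 at Slc30a1 lay before the annotated start. The others lay after it, at bases 3 to 9 and 21 to 27 for Mt1, outside the stretches shown. Bases further downstream were not searched, so the stretches may hold only part of each promoter. The core occurred 1 time in 1 of the 2 windows of Slc39a8, and 0 times in the windows of Slc39a1, Slc39a7 and Slc30a9. Of 32851 such windows, 25.7% held at least 1 core, 7.11% at least 2 and 1.97% at least 3. A match describes the letters of a window and is not evidence of binding.

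The largest contrast among the importers was in Slc39a8 (ZIP8; chr3, 135825279 to 135888572, mm10), which carries zinc, manganese and cadmium into cells. It stood at 2.64 and 2.39 FPKM in the basal libraries, at 30.2, 19.1 and 35.1 in the Sca-1- luminal, at 43.6, 42.0 and 91.5 in the Sca-1+ luminal and at 7.07 and 5.00 in the stromal. Every luminal library lay above every basal and stromal library, and the 4 groups did not overlap. Relative to Sca-1- luminal libraries, Slc39a8 was lower in basal by 3.01 ± 0.38 (SE; log2 difference -3.01, limma with Benjamini-Hochberg adjusted p = 0.000249) and in stromal (-2.02 ± 0.38, limma adjusted p = 0.00194). Relative to Sca-1+ luminal libraries the differences were -4.00 ± 0.38 in basal (limma adjusted p = 0.000401) and -3.01 ± 0.38 in stromal (limma adjusted p = 0.00145). These 4 calls held under all 18 alternative settings. The step between the 2 luminal groups was smaller, 0.99 ± 0.34 higher in Sca-1+ (limma adjusted p = 0.0458), and 13 of the 18 alternatives lost the call, among them leaving out any 1 library other than Sca-1+ replicate 1. It was 0.63 without Sca-1+ replicate 3 (adjusted p = 0.0952) and 1.71 with replicate 3 alone (adjusted p = 0.0195, limma in both). The stromal level was not called above the basal level (0.99 ± 0.41, limma adjusted p = 0.12), except without Sca-1+ replicate 3 (limma adjusted p = 0.0365) or with only those groups fitted (limma adjusted p = 0.036). Slc39a8 was highest in Sca-1+ replicate 3, the library of its group with the fewest fibroblast and the most proximal luminal transcripts. The 7 proximal luminal genes summed to 3068, 6397 and 16924 FPKM in Sca-1+ replicates 1, 2 and 3. Replicate 2 had fewer fibroblast and more proximal luminal transcripts than replicate 1 but slightly less Slc39a8 (42.0 beside 43.6 FPKM). The relation was not tested.

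Slc39a7 (ZIP7; chr17, 34027203 to 34031690) releases zinc from the endoplasmic reticulum into the cytosol, and it was the ZIP member with the highest level in 8 of 10 libraries. Its level was 39.6 and 41.1 FPKM in basal libraries, 108, 102 and 112 in Sca-1- luminal, 68.6, 45.5 and 46.6 in Sca-1+ luminal and 48.6 and 64.4 in stromal. The 3 Sca-1- luminal libraries lay together above all others. The other groups lay within 39.6 to 68.6 FPKM, and the Sca-1+ luminal and stromal ranges overlapped. Slc39a7 was lower than in Sca-1- luminal libraries by 1.39 ± 0.24 in basal (log2 difference -1.39, limma adjusted p = 0.00145), and the difference was -1.02 ± 0.22 in Sca-1+ luminal (limma adjusted p = 0.00768) and -0.93 ± 0.24 in stromal (limma adjusted p = 0.00993). The basal and Sca-1+ luminal calls held under all 18 alternatives, with Sca-1+ replicate 3 left out (-0.93) or alone (-1.19). The stromal call was lost without stromal replicate 1 (-0.73, limma adjusted p = 0.0882). The annotated span of Slc39a7 overlaps a row of its neighbour H2-Ke6, and without known strand the split of reads between the pair is uncertain.

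Slc39a14 (ZIP14; chr14, 70303467 to 70351424), an importer of zinc, manganese and iron not bound to transferrin, had its highest levels in stroma. It stood at 52.3 and 58.1 FPKM in stromal libraries, at 22.2 and 21.2 in basal, at 6.35, 6.03 and 6.02 in Sca-1- luminal and at 30.3, 31.4 and 4.92 in Sca-1+ luminal. The Sca-1+ luminal group was divided: replicates 1 and 2 lay between basal and stromal, and replicate 3 lay below every Sca-1- luminal library. Compared with Sca-1- luminal, Slc39a14 was 2.98 ± 0.61 higher in stromal libraries (limma adjusted p = 0.00326), a call that held under all 18 alternatives, and 1.67 ± 0.61 higher in basal (limma adjusted p = 0.0492), a call that 10 of the 18 alternatives lost, among them leaving out any basal, stromal or Sca-1- luminal library. Against Sca-1- luminal, the Sca-1+ luminal difference was 1.35 ± 0.55 and not called (limma adjusted p = 0.0822). It was 2.16 without Sca-1+ replicate 3 (adjusted p = 3.38e-05) and reversed to -0.27 with replicate 3 alone (adjusted p = 0.492, limma in both). The pooled spread of this gene was set largely by that library: stromal against basal, 1.31 ± 0.67 with limma adjusted p = 0.206, reached adjusted p = 0.00103 without it. Stromal against Sca-1+ luminal was 1.63 ± 0.61 and not called (limma adjusted p = 0.112), but it was called at 2.02 without Sca-1+ replicate 1 (limma adjusted p = 0.0436), at 0.82 without replicate 3 (0.0308) and at 3.25 with replicate 3 alone (0.000189).

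Slc39a6 (ZIP6, also LIV-1), an importer of the plasma membrane, had a like order. Its levels were 31.3 and 25.7 FPKM in stromal libraries, 15.7 and 11.1 in basal, 6.31, 4.02 and 4.52 in Sca-1- luminal and 23.5, 11.6 and 6.27 in Sca-1+ luminal. Stromal libraries were above all others, and Sca-1+ replicate 3 lay inside the Sca-1- luminal range. The stromal difference from Sca-1- luminal libraries was 2.32 ± 0.44 (limma adjusted p = 0.00216) and held under all 18 alternatives. Basal libraries were 1.27 ± 0.44 higher than Sca-1- luminal (limma adjusted p = 0.0392), a call lost in 9 alternatives, among them leaving out any library other than Sca-1+ replicates 1 and 3. Sca-1+ luminal libraries were 1.16 ± 0.39 higher (limma adjusted p = 0.0465), a call lost in 14 alternatives and on leaving out any library other than Sca-1+ replicate 3. With Sca-1+ replicate 3 alone that last difference was 0.31 (limma adjusted p = 0.572), and without it 1.58 (limma adjusted p = 0.00398). Stromal against Sca-1+ luminal, 1.16 ± 0.44, was not called (limma adjusted p = 0.113) unless Sca-1+ replicate 1 was left out (1.62, limma adjusted p = 0.0106) or replicate 3 stood alone (2.01, limma adjusted p = 0.00346).

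Slc39a14 and Slc39a6 are given here beside fibroblast genes. Sca-1+ replicates 1, 2 and 3 had fibroblast sums of 5634, 2970 and 414 FPKM. Slc39a6 was at 23.5, 11.6 and 6.27 FPKM in them, and Slc39a14 at 30.3, 31.4 and 4.92 FPKM. The collagen gene Col1a1 stood at 317 and 314 FPKM in stroma and at 1.67 to 5.68 FPKM in Sca-1- luminal cells, and the 3 Sca-1+ luminal replicates had 360, 190 and 22.4 FPKM. Sca-1+ replicate 1 had more Col1a1 than stroma and less Slc39a14 (30.3 beside 52.3 and 58.1 FPKM). Of the other listed fibroblast genes, Col1a2 was also above both stromal libraries there (394 beside 361 and 388 FPKM). Dcn (3258 beside 5091 and 3639 FPKM), Vim (194 beside 380 and 449) and Fbln1 (146 beside 164 and 174) were below both. The rest lay between the stromal libraries. The 10-gene sum, 5634 FPKM, was below the stromal 7868 and 6289 FPKM. Replicate 3 had more Col1a1 than Sca-1- luminal cells and less Slc39a14 (4.92 beside 6.02 to 6.35 FPKM). In the basal libraries Col1a1 was at 7.16 and 8.77 FPKM while Slc39a14 was at 22.2 and 21.2 and Slc39a6 at 15.7 and 11.1, both above their Sca-1- luminal levels. The basal fibroblast sums, 710 and 528 FPKM, lay above the 414 FPKM of Sca-1+ replicate 3, but most of each basal sum was the proteoglycan gene Dcn. Dcn was at 655 and 459 FPKM in the basal libraries and at 69.2 to 105 FPKM in the Sca-1- luminal, a called difference (2.68 ± 0.89, limma adjusted p = 0.033). It was the only 1 of the 10 fibroblast genes called in that comparison. In Sca-1+ replicate 3 Dcn was at 233 FPKM, and every other listed fibroblast gene was higher there than in both basal libraries. The part of fibroblast transcripts in the Sca-1+ luminal and basal values was not tested.

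**Figure D1:**
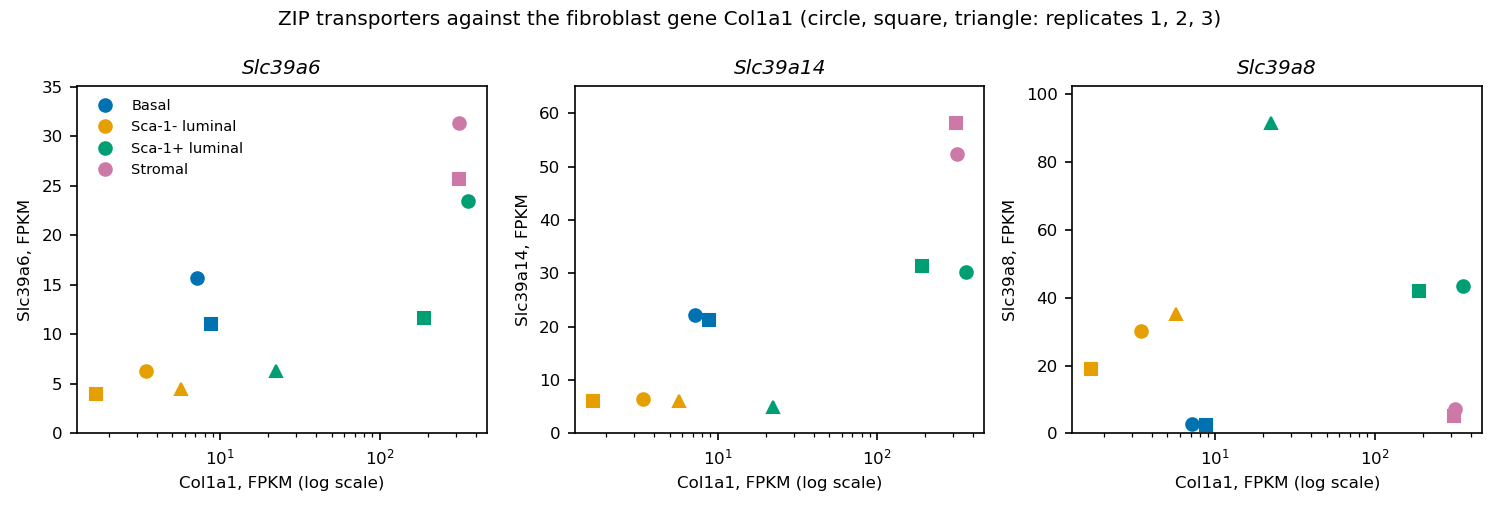
FPKM of Slc39a6, Slc39a14 and Slc39a8 (vertical axes) against FPKM of Col1a1 (horizontal axis, log scale), 1 point per library, coloured by group. Sca-1+ luminal replicate 3 (triangle) has the least Col1a1 of its group, the lowest Slc39a14 of all libraries (4.92) and the highest Slc39a8 (91.5).

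Slc39a1 (ZIP1; chr3, 90248192 to 90253612), a zinc importer of the plasma membrane, was the ZIP member with the lowest level in 6 of 10 libraries, among them all Sca-1- luminal ones. It stood at 3.63 and 5.01 FPKM in basal libraries, at 2.48, 3.93 and 2.39 in Sca-1- luminal, at 4.18, 5.12 and 5.16 in Sca-1+ luminal and at 6.23 and 9.69 in stromal. Stromal libraries were above all others, while basal and Sca-1+ luminal libraries overlapped. The stromal difference from Sca-1- luminal libraries, 1.18 ± 0.28, was called (limma adjusted p = 0.00631) and was lost without stromal replicate 2 (0.90, limma adjusted p = 0.062). None of its 5 other differences was called, and Sca-1+ against Sca-1- luminal, 0.58, was 0.54 without Sca-1+ replicate 3 and 0.67 with it alone (limma adjusted p = 0.15 and 0.252).

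**Figure D2:**
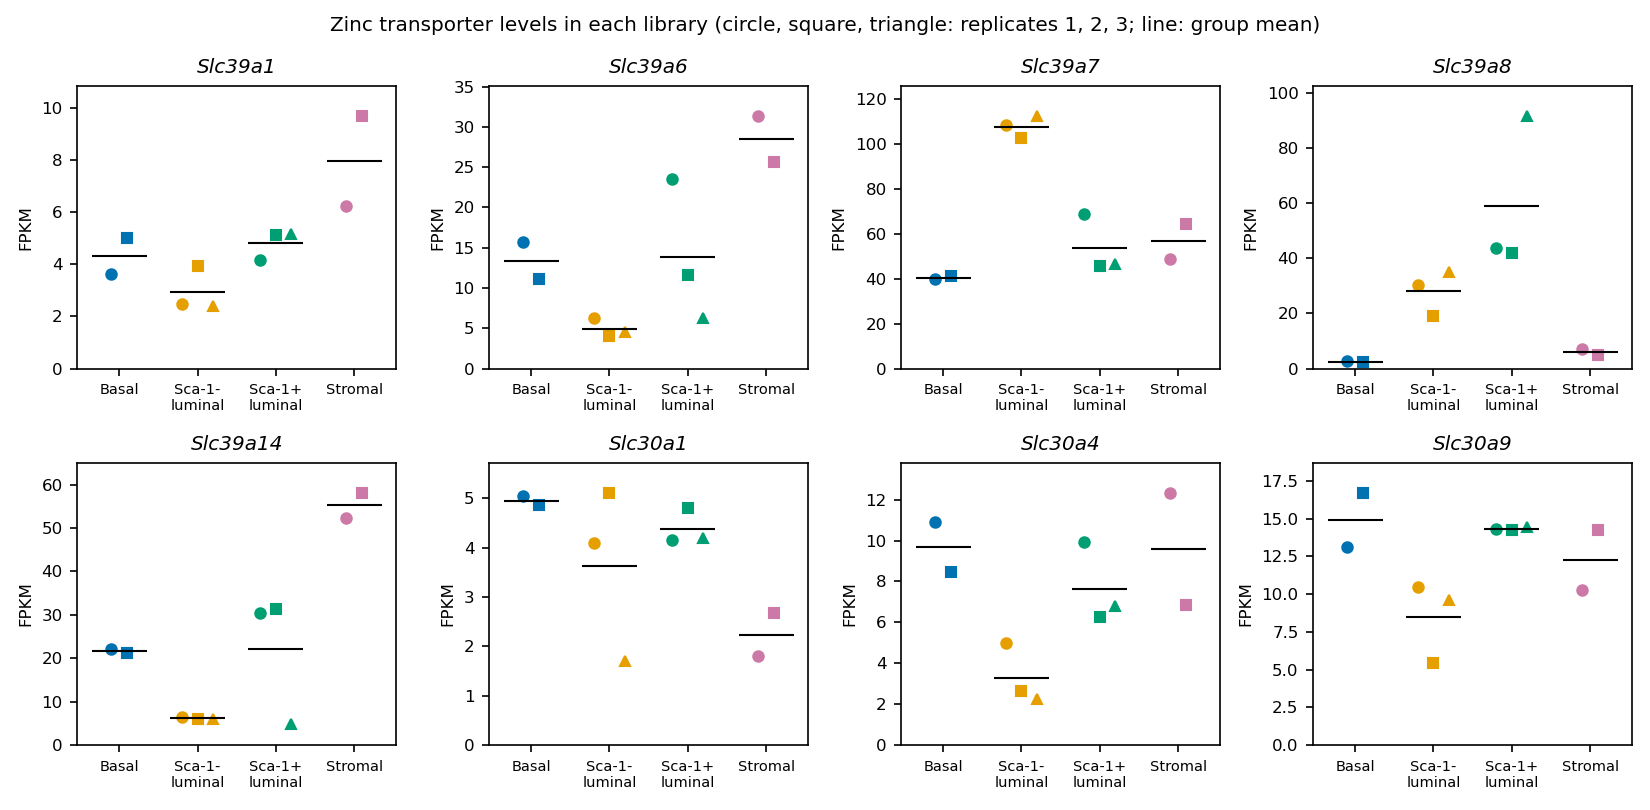
FPKM of the 8 zinc transporter genes in each of the 10 libraries, by group, with symbols for replicates and a line at the group mean (n = 2 or 3). Slc39a8 is high in both luminal groups, Slc39a7 in Sca-1- luminal, and Slc39a14 and Slc39a6 in stroma.

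Slc30a9 (chr5, 67306957 to 67356145), a transporter of the mitochondrial membrane, stood at 13.1 and 16.7 FPKM in basal libraries, at 10.5, 5.41 and 9.64 in Sca-1- luminal, at 14.3, 14.3 and 14.5 in Sca-1+ luminal and at 10.3 and 14.3 in stromal. The Sca-1- luminal libraries lay lowest, with stromal replicate 1 inside their range. The differences from Sca-1- luminal, 0.73 ± 0.26 in Sca-1+ luminal (limma adjusted p = 0.0499) and 0.78 ± 0.29 in basal (limma adjusted p = 0.0489), lay at the threshold and were lost in 17 and 12 of the 18 alternatives. The first was lost on leaving out any library, the second on leaving out any except Sca-1- replicate 1 and Sca-1+ replicate 3. The Sca-1+ luminal difference was 0.73 without Sca-1+ replicate 3 (limma adjusted p = 0.0705) and 0.75 with it alone (limma adjusted p = 0.229).

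Slc30a4 (ZnT4; chr2, 122681233 to 122702663), which loads zinc into vesicles and is mutated in the lethal milk mouse, stood at 10.9 and 8.48 FPKM in basal libraries, at 4.99, 2.63 and 2.24 in Sca-1- luminal, at 9.92, 6.24 and 6.78 in Sca-1+ luminal and at 12.3 and 6.83 in stromal. All Sca-1- luminal libraries lay below all others, and the other 3 groups overlapped. Against Sca-1- luminal it was 1.36 ± 0.35 higher in basal (limma adjusted p = 0.011), 1.31 ± 0.35 in stromal (limma adjusted p = 0.0117) and 1.04 ± 0.31 in Sca-1+ luminal (limma adjusted p = 0.0306). The basal call was lost without basal replicate 1 (limma adjusted p = 0.0866), the stromal call without stromal replicate 1 (limma adjusted p = 0.119), and the Sca-1+ luminal call in 8 alternatives, among them both rescalings and leaving out Sca-1- replicate 2 or 3 or Sca-1+ replicate 1 or 2. That difference was 1.11 without Sca-1+ replicate 3 (limma adjusted p = 0.0314) and 0.91, not called, with it alone (limma adjusted p = 0.199).

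Slc30a1 (ZnT1; chr1, 191906781 to 191913247), the exporter of the plasma membrane, stood at 5.04 and 4.86 FPKM in basal libraries, at 4.09, 5.11 and 1.70 in Sca-1- luminal, at 4.15, 4.80 and 4.19 in Sca-1+ luminal and at 1.803 and 2.67 in stromal. Both stromal libraries lay below all basal and Sca-1+ luminal libraries, and Sca-1- luminal replicate 3 lay lowest of all. None of its 6 differences was called by limma, and 1 had an unadjusted p under 0.05, that between stromal and basal (-0.89 ± 0.37, limma adjusted p = 0.118). Without Sca-1- luminal replicate 3, stromal against Sca-1- luminal was -0.80 and called (limma adjusted p = 0.0303), as was stromal against basal (limma adjusted p = 0.0366). Sca-1+ against Sca-1- luminal was 0.32 without Sca-1+ replicate 3 and 0.25 with it alone (limma adjusted p = 0.475 and 0.756).

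The metallothionein genes were among the most abundant transcripts. Mt1 (chr8, 94179089 to 94180327) stood at 7850 and 6439 FPKM in basal libraries, at 9339, 17202 and 7564 in Sca-1- luminal, at 5259, 6517 and 2020 in Sca-1+ luminal and at 13961 and 22151 in stromal. Mt2 (chr8, 94172618 to 94173567) stood at 5007 and 4772 FPKM in basal libraries, at 3193, 5600 and 2459 in Sca-1- luminal, at 2703, 3660 and 729 in Sca-1+ luminal and at 7706 and 10120 in stromal. For Mt2 both stromal libraries lay above all others, for Mt1 Sca-1- luminal replicate 2 lay between them, and Sca-1+ luminal replicate 3 was lowest for both. By FPKM, Mt1 ranked first among all genes in basal replicate 1 and in both stromal libraries, and had rank 24 in Sca-1+ luminal replicate 3. Together the pair made up 5.26% and 6.77% of summed FPKM in stromal libraries, 3.26% and 2.80% in basal, 1.97%, 3.48% and 1.57% in Sca-1- luminal and 1.86%, 2.22% and 0.573% in Sca-1+ luminal.

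In the fit with a trend over all libraries, no difference of Mt1 or Mt2 was called by limma in any of the 6 comparisons. Of the 12, 2 had an unadjusted p under 0.05. Those 2 were stromal against Sca-1+ luminal, 2.10 ± 0.78 for Mt1 (limma adjusted p = 0.107) and 2.19 ± 0.75 for Mt2 (limma adjusted p = 0.0864). Both were called with all libraries in the fit without a trend (limma adjusted p = 0.0269 and 0.0441). With Sca-1+ replicate 3 alone these differences were 3.12 and 3.60, and without it 1.59 and 1.49 and not called (limma adjusted p = 0.149 and 0.117). Leaving that library out took Mt2 in stromal against Sca-1- luminal, 1.32 ± 0.75, from limma adjusted p = 0.165 to 0.0414. That Mt2 difference was also called with only the groups compared (limma adjusted p = 0.0339). The wide standard errors, 0.67 to 0.85 over the 12 differences of the pair, mean that a missed threshold does not show alike levels. Sca-1+ luminal against Sca-1- luminal was -1.38 ± 0.70 for Mt1, 0.20 after quantile normalization, and called in the fit without a trend (limma adjusted p = 0.0443). Without Sca-1+ replicate 3 it was -0.87 (limma adjusted p = 0.247), and with that library alone -2.40 and called (limma adjusted p = 0.0395). For Mt2 it was -0.87, then -0.17 without that library (limma adjusted p = 0.807) and -2.27 and called with it alone (limma adjusted p = 0.0293).

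The ratio of Mt2 to Mt1 was noticed after the values had been seen and is given without a test. It was 0.342, 0.326 and 0.325 in the Sca-1- luminal libraries, although their Mt1 level varied from 7564 to 17202 FPKM. It was 0.638 and 0.741 in basal libraries, 0.514, 0.562 and 0.361 in Sca-1+ luminal and 0.552 and 0.457 in stromal. The basal libraries had the highest ratios and the Sca-1- luminal the lowest, with Sca-1+ luminal replicate 3 nearest to the Sca-1- luminal.

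**Figure D3:**
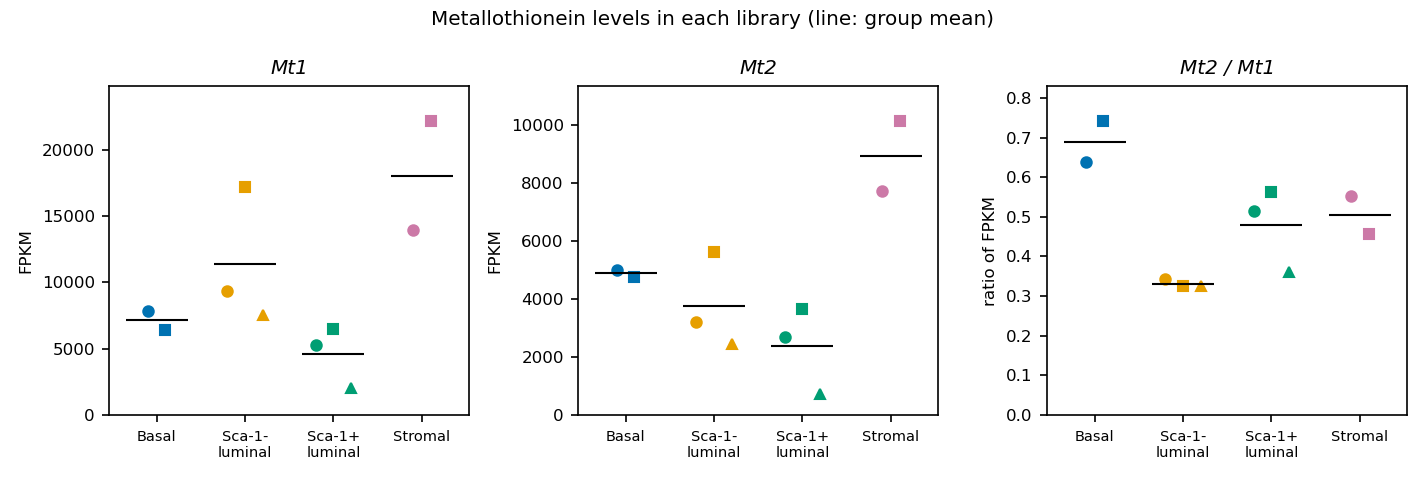
FPKM of Mt1 and Mt2 and the ratio of Mt2 to Mt1 (vertical axes) in each library, by group, with circles, squares and triangles for replicates 1, 2 and 3 and a line at the group mean. The ratio lies at 0.325 to 0.342 in the Sca-1- luminal libraries and at 0.638 and 0.741 in the basal ones.

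Across the 6 comparisons, which share groups and so are not independent, 19 of the 60 member differences were called. Against Sca-1- luminal libraries, 6 of 10 members were called in basal (4 higher, 2 lower) where 45.9% of all tested genes were called (20.0% higher, 25.9% lower), and 6 of 10 in stromal (4 higher, 2 lower) where 52.5% were (25.2% higher, 27.3% lower). In Sca-1+ luminal, 5 of 10 were called (4 higher, 1 lower) where 34.8% were (21.6% higher, 13.2% lower). The remaining comparisons held few calls: Slc39a8 alone was called, as lower, in basal and in stromal against Sca-1+ luminal (backgrounds 19.5% and 13.2% of genes in either direction, 15.1% and 11.4% lower, 4.35% and 1.73% higher). In stromal against basal, limma called 0 of 10 (3 had an unadjusted p under 0.05), where 22.2% of genes were called (13.3% higher, 8.95% lower). At 0 to 6 of 10 genes these shares are near the backgrounds, and none is a result about the group as a whole. Median member differences were 0.66 in Sca-1+ luminal, 0.46 in basal and 0.95 in stromal against Sca-1- luminal, beside medians of 0.19, -0.05 and -0.06 over all tested genes. With Sca-1+ replicate 3 alone, 1 member was called higher than in Sca-1- luminal (Slc39a8) and 3 lower (Slc39a7, Mt1 and Mt2), where 15.9% of 12269 genes were called (9.97% higher, 5.93% lower). Only Slc39a7 was called after median-of-ratios scaling or quantile normalization, which gave 4378 and 4457 calls over all genes beside 4355, and moved the all-gene median of that comparison by -0.17 and -0.26 and the share of higher genes among calls from 62.0% to 46.1% and 40.5%.

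**Figure D4:**
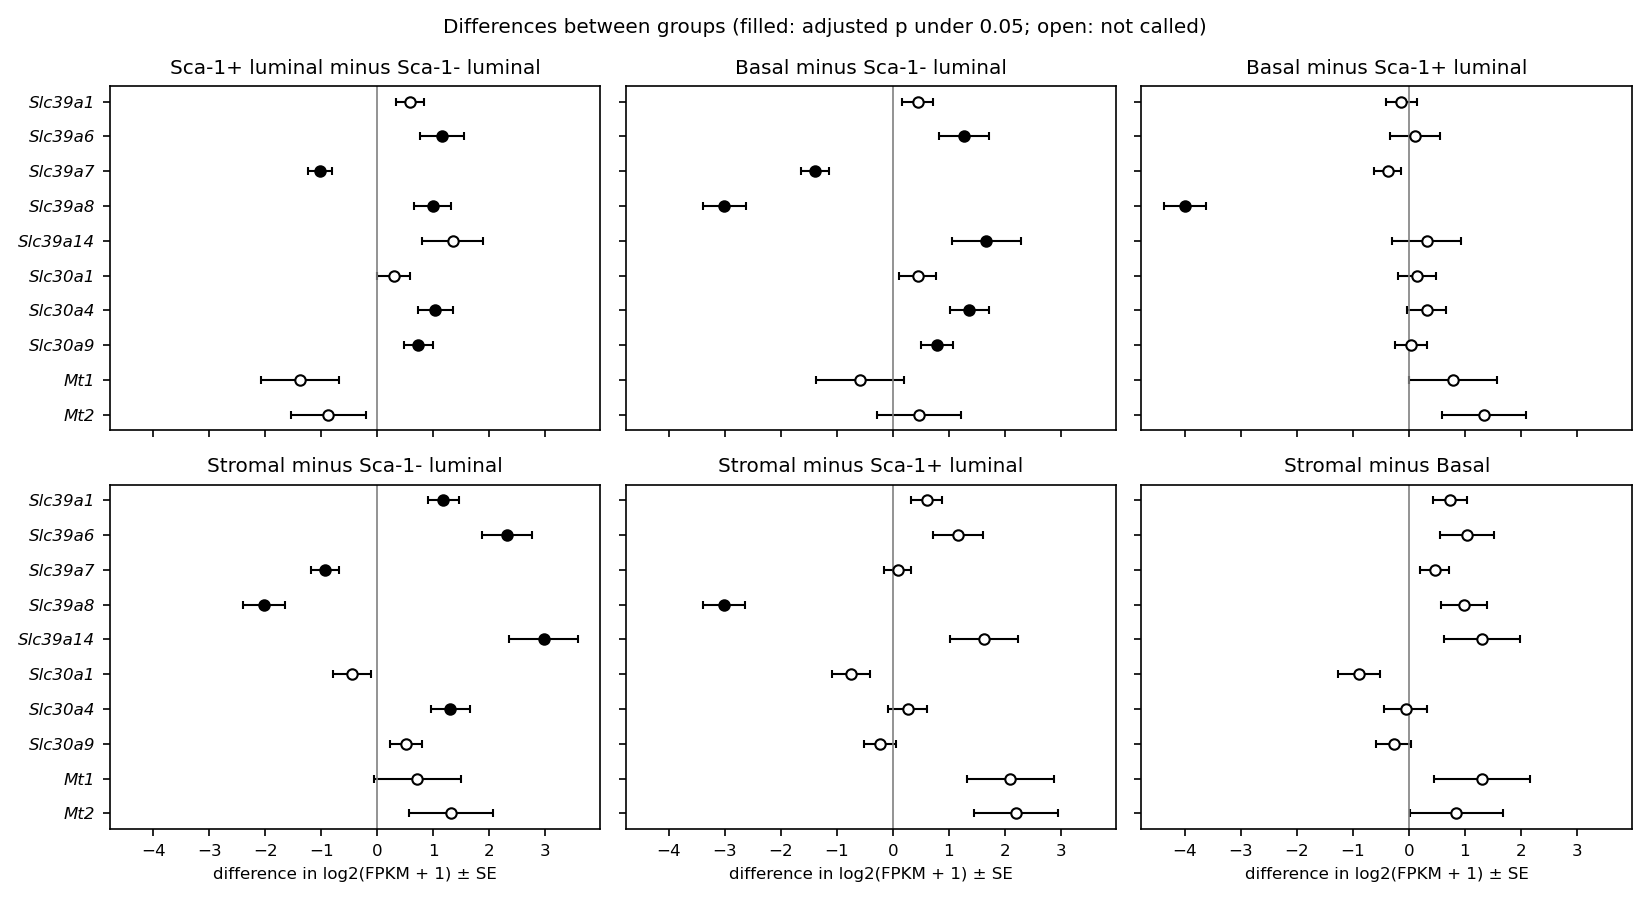
Differences in log2(FPKM + 1) with standard errors for the 10 members in the 6 comparisons of groups; filled points are called at adjusted p under 0.05 in limma, open points are not. Slc39a7 lies left of zero and called in every panel against Sca-1- luminal, and Mt1 and Mt2 have the widest bars and no filled point.

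Of 19 further zinc-handling genes, 13 passed the filter. Against Sca-1- luminal, 1 was called higher and 3 lower in Sca-1+ luminal, 0 higher (5 at an unadjusted p under 0.05 in either direction, limma) and 5 lower in basal, and 2 higher and 3 lower in stromal. Over all tested genes, 21.6%, 20.0% and 25.2% were called higher and 13.2%, 25.9% and 27.3% lower in these comparisons. Against Sca-1+ luminal, 2 were called lower in basal, and 2 higher and 2 lower in stromal (19.5% and 13.2% of all genes called). In stromal against basal 2 were called higher (22.2% of all genes called). No count is read as a result about these genes as a group. Slc39a11 (ZIP11), an intracellular transporter, measured 32.5, 27.4 and 32.9 FPKM in Sca-1- luminal cells, at 9.75, 7.42 and 6.93 in Sca-1+ luminal, at 2.33 and 1.76 in basal and at 3.44 and 4.03 in stromal, with no overlap between groups. Its differences from Sca-1- luminal were -1.83 ± 0.20 (limma adjusted p = 0.000545), -3.39 ± 0.23 (limma adjusted p = 1.47e-05) and -2.75 ± 0.23 (limma adjusted p = 4.49e-05) respectively. Slc30a2 (ZnT2), known for zinc secretion into milk, had the same high group: 20.4, 15.9 and 29.4 FPKM in Sca-1- luminal cells, beside a range of 0.684 to 4.52 over the remaining 7 libraries. Its difference from that group was -2.39 ± 0.32 for Sca-1+ luminal (limma adjusted p = 0.00106), -3.47 ± 0.35 for basal (limma adjusted p = 8.72e-05) and -2.61 ± 0.35 for stromal (limma adjusted p = 0.00041). Without Sca-1+ replicate 3 and with it alone, the luminal differences were -1.74 and -2.00 for Slc39a11 and -2.26 and -2.64 for Slc30a2, and all were called by limma.

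Slc39a4 (ZIP4), the zinc uptake transporter of the intestine, was highest in Sca-1+ and next in Sca-1- luminal cells, as Slc39a8 was, but lowest in stroma, where Slc39a8 was lowest in basal cells. It measured 11.6, 17.4 and 39.1 FPKM in Sca-1+ luminal cells, at 7.29, 7.84 and 10.9 in Sca-1- luminal, at 2.73 and 3.07 in basal and at 0.352 and 0.701 in stromal. The groups did not overlap, and stromal libraries were lowest (-3.79 ± 0.43 against Sca-1+ luminal, limma adjusted p = 0.00103). Between the luminal groups it was 1.14 higher in Sca-1+ (limma adjusted p = 0.045), 0.67 and not called without Sca-1+ replicate 3 (limma adjusted p = 0.0715) and 2.07 with it alone (limma adjusted p = 0.00553). Mt3, a metallothionein best known from brain, measured 57.3, 89.3 and 91.4 FPKM in Sca-1- luminal cells, at 5.25 and 8.92 in basal, at 25.2, 32.2 and 11.4 in Sca-1+ luminal and at 55.5 and 210 in stromal. Stromal against basal was 3.79 ± 0.63 (limma adjusted p = 0.0034), while that comparison was not called for Mt1 or Mt2, and the difference between the genes was not tested. Sca-1+ against Sca-1- luminal was -1.83 for Mt3 and called, as it was without Sca-1+ replicate 3 (-1.41) and with it alone (-2.66; limma adjusted p = 0.0231, 0.0441 and 0.0313). The transcription factor gene Mtf1 lay between 2.64 and 18.4 FPKM, both extremes in Sca-1- luminal libraries, and was called by limma in none of the 6 comparisons, with 0 of 6 at an unadjusted p under 0.05. Slc39a5 and Slc30a8 were listed at 0 in all 10 libraries.

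**Figure D5:**
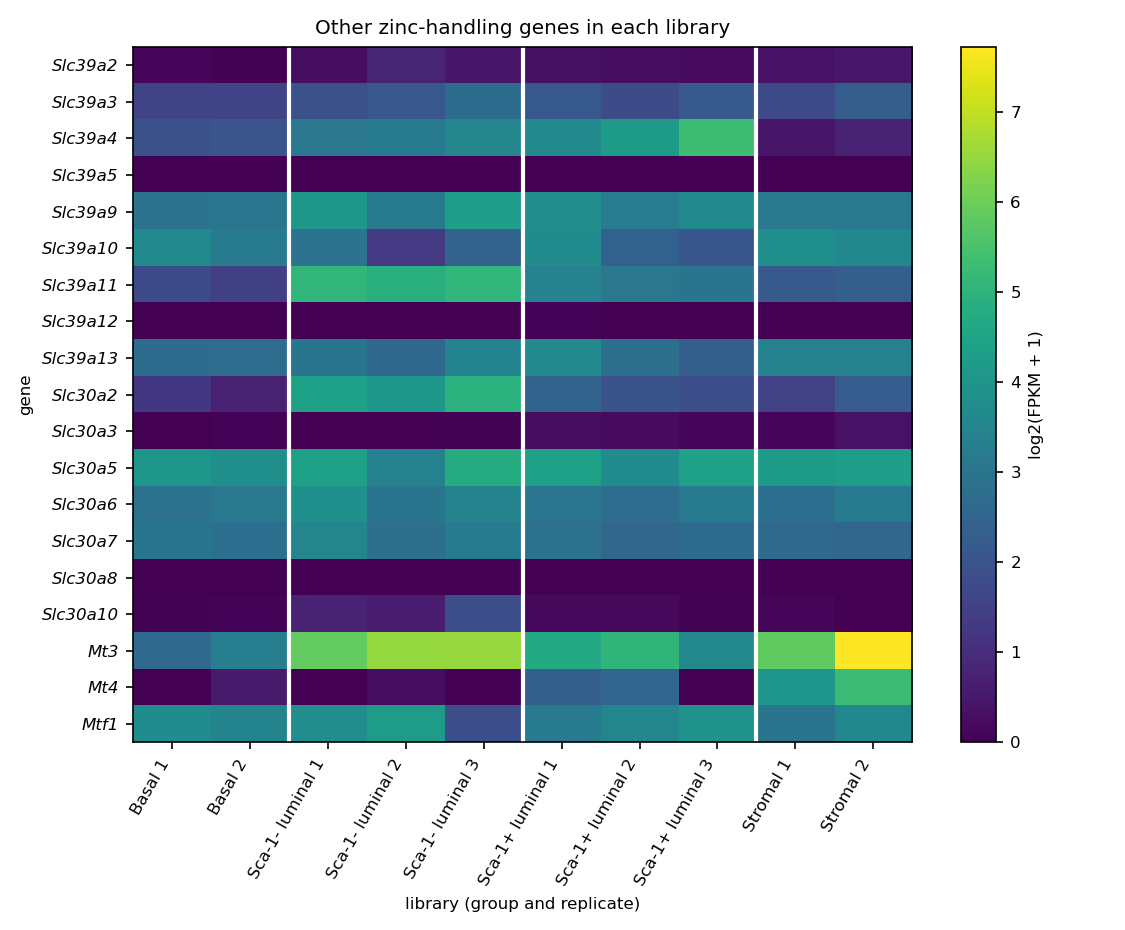
log2(FPKM + 1) (colour) of the 19 further zinc-handling genes (rows) in the 10 libraries (columns, by group and replicate). Slc39a11, Slc30a2 and Mt3 are bright in the 3 Sca-1- luminal columns, and Mt3 is brightest in stromal replicate 2 (210 FPKM).

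Some members followed one another over the 10 libraries. Slc39a6 and Slc39a14 had a Pearson correlation of 0.94 on the log2(FPKM + 1) scale, Mt1 and Mt2 of 0.91, and Slc30a1 and Mt1 of -0.30. These describe 10 libraries that share cell types and depth, and carry no test. Among all tested genes, the 3 most like Slc39a8 were Slc37a1 (0.989), Pon3 (0.979) and Snx33 (0.977). Those most like Slc39a14 were Kirrel (0.989), Ttyh2 (0.988) and Dram1 (0.986). Those most like Slc39a6 were Uap1 (0.988), P4ha1 (0.985) and Lrp12 (0.985), and those most like Mt2 were Armcx2 (0.920), Mt1 (0.912) and Tmeff1 (0.908). For Mt2, then, the other metallothionein was among the 3 nearest genes.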

How the data were processed

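RNA of 10 libraries was amplified with random and poly(dT) priming (NuGEN Ovation) and sequenced on a HiSeq, per the labels' protocols. The submitters' processing notes name bcl2fastq 1.8.3, TopHat, Cufflinks and build mm10 (TopHat and Cufflinks versions: not given in the sources used here). The deposited tables give FPKM for 63241 UCSC transcripts per library as the authors computed it. They also give coverage, per the file headers, which was not used. The members and gene lists were chosen with earlier results of these data known.

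Files carry no gene names or strand. Rows were matched by locus to GENCODE M21 and RefSeq (GRCm38.p6), which named 53181 rows (84.1%), and FPKM was summed per gene over rows of any length. 7 genes with a failed estimate were left out. Replicate numbers follow the order of listing. The filter kept genes that reached 1 FPKM in 2 or more libraries, and tests ran on log2(FPKM + 1) with limma 3.58.1 in R 4.3.3, using a mean per group, all 10 libraries, eBayes with trend and 6 residual degrees of freedom. Benjamini-Hochberg adjustment ran over the 12518 tested genes of each comparison, and a gene was called at adjusted p under 0.05. The procedure was also run on simulated data, where chosen genes were shifted in 1 group by more than most member differences called here. All other genes were equal between groups there, unlike in these libraries, so the simulation does not bear on the calls above. All members are described, and the 3 nearest genes are named for the 4 members with the widest range of group means. Alternatives were 2 rescalings, a pseudocount of 0.1, no filter, rows under 300 nt left out, no trend, only the groups compared, each library left out in turn and, added after seeing the data, Sca-1+ replicate 3 alone in its group.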

Additional observations from a re-analysis of the deposited data

How the results depend on the processing

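Of the 19 called member differences, 8 kept their call under all 18 alternatives: 4 of Slc39a8, 2 of Slc39a7 and the stromal differences of Slc39a14 and Slc39a6 from Sca-1- luminal. No called difference reversed. No paired analysis was made. The labels carry no replicate numbers, but serial numbers in the titles repeat the order basal, Sca-1- luminal, stromal, Sca-1+ luminal. The last Sca-1- and Sca-1+ luminal libraries follow without basal or stromal counterparts. Whether neighbouring numbers share a sort or animal is not stated, and their effect was not tested. In every group Slc39a6, Slc39a8 and Slc30a4 were higher in replicate 1 than in replicate 2, and Slc39a1 was lower. The other members had no common direction. How many of all tested genes share a direction in every group was not counted, so these directions are given as values only. Where 1 library was left in a group, it was assumed to vary like the others. Depth limits the low members most, and Slc39a1, Slc30a1 and basal Slc39a8 rest on the fewest fragments.

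The number of members called in Sca-1+ against Sca-1- luminal, 5, was 1 after median-of-ratios scaling, 1 after quantile normalization, 1 without a filter, 2 with only the groups compared and 1 to 4 with a library left out. The 6 called in basal against Sca-1- luminal became 3 without a filter and 2 to 6 with a library left out. In basal against Sca-1+ luminal, 1 became 3 with Sca-1+ replicate 3 alone. In stromal against Sca-1+ luminal, 1 became 3 without a trend, 5 with Sca-1+ replicate 3 alone and 1 to 3 with a library left out. In stromal against basal, 0 became 4 with only the groups compared, 2 with Sca-1+ replicate 3 alone and 0 to 2 with a library left out.

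Over all genes, leaving out a library gave 2662 to 5181 calls in Sca-1+ against Sca-1- luminal (4355 with all, 4378 after median-of-ratios scaling and 4457 after quantile normalization), 3677 to 6408 in basal against Sca-1- luminal (5745), 572 to 3549 in basal against Sca-1+ luminal (2437), 4342 to 7065 in stromal against Sca-1- luminal (6570), 376 to 2997 in stromal against Sca-1+ luminal (1648) and 1106 to 3561 in stromal against basal (2779). With Sca-1+ replicate 3 alone, the calls were 1951 in Sca-1+ against Sca-1- luminal and 3755 in stromal against Sca-1+ luminal. With only the groups compared they were 1439 in basal and 753 in stromal against Sca-1+ luminal. Rescaling moved the all-gene median by 0.27 (median-of-ratios) and 0.37 (quantile) in basal against Sca-1+ luminal, with the share of higher genes among calls going from 22.3% to 47.6% and 53.2%, and by 0.23 and 0.22 in stromal against Sca-1+ luminal, where it went from 13.1% to 32.6% and 37.5%. Quantile normalization moved it by -0.12 in stromal against basal. The cause was not tested for any of these changes.

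Reversals were of differences that were not called. Mt1 came to 0.20 in Sca-1+ and 1.54 in basal against Sca-1- luminal after quantile normalization. In basal against Sca-1+ luminal, Slc39a1 came to 0.17 after median-of-ratios scaling and 0.30 after quantile normalization. Slc30a9 came to 0.045 in stromal against Sca-1+ luminal after median-of-ratios scaling, and Slc39a14 to -0.27 in Sca-1+ against Sca-1- luminal with Sca-1+ replicate 3 alone. With a library left out, Slc30a1 ranged from -0.054 to 0.53 in Sca-1+ against Sca-1- luminal. In basal against Sca-1+ luminal, Slc39a1 ranged from -0.32 to 0.052, Slc39a6 from -0.31 to 0.57, Slc30a9 from -0.12 to 0.21 and Slc39a14 from -0.49 to 0.74. In stromal against Sca-1+ luminal, Slc30a4 ranged from -0.12 to 0.65 and Slc39a7 from -0.11 to 0.29. In stromal against basal, Slc30a4 ranged from -0.44 to 0.33.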

Other observations

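Genes that respond to oxidative and metal stress are given here as values beside the metallothioneins. Hmox1, the heme oxygenase that is induced by heme and oxidants, stood at 61.1 and 197 FPKM in basal libraries, at 99.1, 193 and 3.59 in Sca-1- luminal, at 472, 537 and 136 in Sca-1+ luminal and at 1262 and 1541 in stromal. Stromal libraries were above all others, and Sca-1- luminal replicate 3 was lowest. The 6 stress genes listed (Hmox1, Txnrd1, Srxn1, Gclm, Nqo1 and Slc7a11) summed to 1688 and 2172 FPKM in stromal libraries and to between 83.1 and 971 FPKM elsewhere. Sca-1+ luminal replicates 1, 2 and 3 held 929, 971 and 397 FPKM of these transcripts, with Mt2 at 2703, 3660 and 729 FPKM. The Mt2 mean of that group was the lowest of the 4, 2364 ± 1495 FPKM (SD, n = 3).

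Among the 6 rows of Slc39a8, 2 carried most of its signal, with starts at 135825657 and 135825790 on chromosome 3. The row starting at 135825657, 3383 nt long, was above 0 in 10 libraries and the row starting at 135825790, 3533 nt long, in 9. In Sca-1+ luminal replicate 3 they stood at 69.8 and 21.7 FPKM. One row of Slc39a14 was above 0 only in the 3 Sca-1- luminal libraries, at 2.68, 1.09 and 0.671 FPKM, and has the same span and length as a row that was above 0 in all 10, so the split between these rows is uncertain. A shorter row of Slc39a14, 1398 nt long, held 17.8 of 52.3 FPKM in stromal replicate 1, 13.0 of 31.4 FPKM in Sca-1+ luminal replicate 2 and 0 in stromal replicate 2 and in both basal libraries.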
